A study of Rattus norvegicus with 6 samples.

Results

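The 10 genes described here are the FOS family (Fos, Fosb, Fosl1, Fosl2), the JUN family (Jun, Junb, Jund), Egr1 and the IER genes Ier2 and Ier3, taken by symbol. The rule uses no measured value, but the set was proposed with earlier results of these data known. They are 10 of 17315 gene rows, each has 1 row, and all 10 passed the filter of a mean TPM of 1 over the 6 samples, TPM being transcript abundance scaled by transcript length and library total. RNA-seq was performed on HCN cells, a cultured line of adult rat hippocampal neural stem cells (NSCs). One group received a negative control duplex (siControl, n = 3) and the other a Stealth RNAi duplex against Derl1 (siDerl1, n = 3), the gene for Derlin-1, a protein of the endoplasmic reticulum membrane that takes part in removing misfolded proteins. Both groups were reverse transfected, grown in medium with bFGF, and then held for 2 days in medium with BMP4, which brings these cells to a quiescent state. The paper's methods describe the quiescence medium of rat NSCs as holding bFGF at a lower concentration beside BMP4. All samples came from 1 line, and 1 duplex was used per group. The labels number the samples 1 to 3 in each group, without saying that the numbers stand for separate cultures, so p-values here measure the spread between these samples, which may be technical.

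FOS and JUN proteins pair through leucine zippers to form the transcription factor AP-1, with JUN proteins able to pair among themselves and FOS proteins requiring a JUN partner. Many of their genes, with Egr1 and the IER genes, are immediate early genes: serum, growth factors or stress raise the transcripts rapidly and without new protein synthesis, through kinases such as ERK and JNK and factors such as SRF, ELK and CREB. In neural stem cells, ERK signalling downstream of FGF receptors is a known input to these genes.

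RefSeq promoter sequences (assembly GRCr8, 250 bases before to 50 after the start) were found for 7 of the 10 genes, all but Fos, Jun and Ier3. Stretches of 3 promoters are shown because they hold the elements through which immediate early genes are classically switched on. Capitals mark CArG boxes, the sites bound by SRF, in Egr1; the cyclic AMP response element TGACGTCA, bound by CREB and ATF factors and by some AP-1 dimers, in Ier2 and Jund; and the EGR1 site GCGTGGGCG in Jund.

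Egr1, chr18:26736948-26737027, plus strand: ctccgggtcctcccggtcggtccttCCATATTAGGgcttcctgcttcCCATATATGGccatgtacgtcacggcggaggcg
Ier2, chr19:40399273-40399352, plus strand: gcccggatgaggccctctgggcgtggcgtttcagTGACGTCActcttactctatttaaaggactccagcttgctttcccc
Jund, chr16:18769832-18770001, minus strand: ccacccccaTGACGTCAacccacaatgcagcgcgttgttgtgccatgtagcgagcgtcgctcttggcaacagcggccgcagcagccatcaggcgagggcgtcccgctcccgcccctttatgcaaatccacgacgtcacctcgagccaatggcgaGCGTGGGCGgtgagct

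The CArG boxes of Egr1 lay 105 to 96 and 83 to 74 bases upstream of the start, the response element 66 to 59 bases upstream in Ier2 and 221 to 214 in Jund, and the EGR1 site 76 to 68 bases upstream in Jund. Among 33469 rat promoters of the same length, 1.64% held a CArG box, 1.83% TGACGTCA and 0.544% GCGTGGGCG on either strand. The AP-1 site itself, TGACTCA or TGAGTCA on the other strand, was in 4.63% of all promoters and in 0 of the 7. Also searched were the ETS site CCGGAAGT (3.81% of promoters, 0 of the 7), CCAAT (37.5%, in Egr1, Junb and Jund), GGGCGG (33.1%, in Fosl1, Fosl2 and Jund) and the core TGACGT, which overlaps TGACGTCA (7.94%, in Egr1, Ier2 and Jund). The marked motifs and the windows were chosen after the matches were seen, and a match is a description of letters, not of binding.

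The labelled cell type was checked first. Of 12 neural stem cell markers 11 were above 1 TPM in every sample, with Sox2 between 445 and 565 TPM, and Prom1 was listed at 0 throughout. Genes of the oligodendrocyte lineage were also high (Sox10 541 to 787 TPM, Mbp 245 to 340 TPM), whereas Mog and Mobp were listed at 0. Of 10 neuron markers 6 were above 1 TPM in every sample, such as Tubb3 (58.8 to 83.2 TPM) and Gad1 (37.0 to 86.6 TPM), and 1 was under 1 TPM in every sample. Of 10 microglia markers 8 were under 1 TPM in every sample, as were 8 of 10 endothelial and mural markers. Derl1 was 122, 132 and 128 TPM in siControl samples 1 to 3 and 44.9, 70.8 and 74.0 TPM in siDerl1 samples 1 to 3, with no overlap (log2 difference −1.03, SE 0.18, exact two-sided permutation p = 0.1, the smallest that 3 against 3 allows; limma adjusted p = 0.497). With the sample number as a block the adjusted p for Derl1 was 0.00884, and 0.104 and 0.229 when the block went with no filter or no intensity trend. TPM is per length and per library, so sequencing depth is unknown, and in bulk RNA fewer cells expressing a gene and less RNA per cell cannot be told apart.

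The quiescent NSCs expressed a JUN-rich set of transcripts. Mean levels over the 6 samples were 177 TPM for Jund, 141 TPM for Jun and 109 TPM for Junb, followed by Ier2 at 65.0, Fos at 40.7 and Ier3 at 38.9 TPM. Fosl2 was at 11.1 TPM, and Fosb, Fosl1 and Egr1 were near the lower end at 2.87, 2.81 and 2.68 TPM. The ranges over samples overlapped between each neighbouring pair in this order except between Ier3 and Fosl2 and between Fosl2 and Fosb, so Fosl2 lay below the 6 higher genes and above the 3 low ones in every sample. Within the 6, Jund and Jun were above Ier2, Fos and Ier3 in every sample, as Junb and Ier2 were above Ier3, while the ranges of Jund, Jun and Junb overlapped.

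Between siControl and siDerl1 NSCs, none of the 10 genes differed at an adjusted p of 0.05, and 0 had groups that did not overlap. The genes were evenly divided, 5 with a higher and 5 with a lower mean log2 value in siDerl1, and their median log2 difference was 0.00 against −0.02 for all 10331 genes tested. By limma with Benjamini-Hochberg adjustment, 0% of all genes were called, 6.7% (692 genes) had an unadjusted p under 0.05 with 0 of the 10 among them, and 13.6% had groups that did not overlap. Fos, Jun and Junb differed instead by the sample number shared by the groups: Fos and Jun were highest in sample 1 of both groups, and Junb was lowest there.

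**Figure D1:**
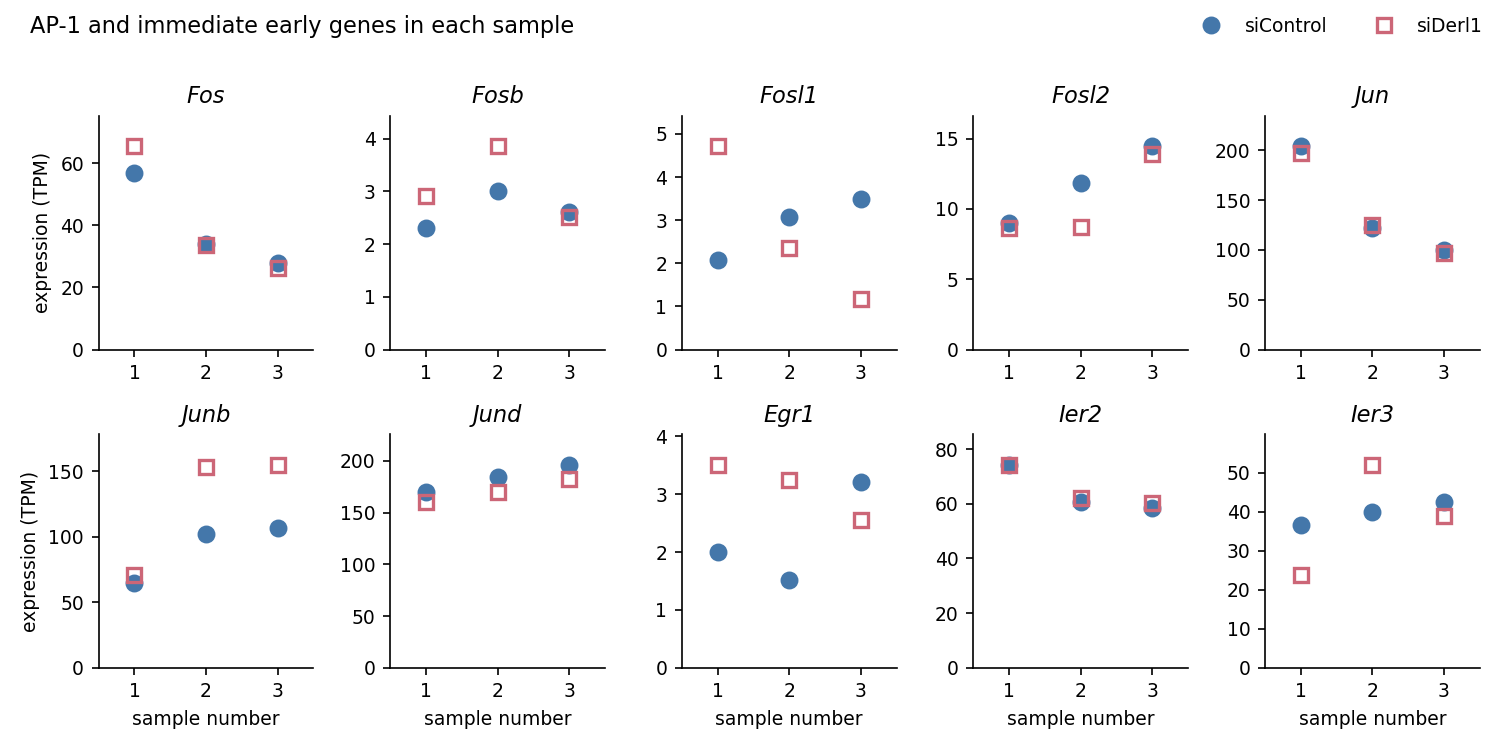
Expression (TPM, linear axes from 0) of each gene against sample number, with filled circles for siControl and open squares for siDerl1, 1 point per sample. Fos and Jun are higher in sample 1 than in samples 2 and 3 of both groups, whereas Junb is lowest in sample 1 and lies above siControl in siDerl1 samples 2 and 3.

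Among the JUN family, Jun encodes the AP-1 subunit that strongly activates transcription and is a main target of JNK. Jun was 204, 122 and 99.8 TPM in siControl samples 1, 2 and 3, and 197, 124 and 96.8 TPM in siDerl1 samples 1, 2 and 3. Same-numbered samples lay close together, and both samples numbered 1 were above the other 4. The group means were 142 ± 54.7 and 139 ± 51.6 TPM (SD, n = 3 each), a log2 difference of −0.02 (95% interval −0.78 to 0.73, limma adjusted p = 0.992). With the sample number as a block the interval was −0.14 to 0.10. The F test of sample number in limma, with siRNA group in the model, gave an adjusted p of 4.87e-05, and the mean of the samples numbered 1 was 1.81 times that of samples 2 and 3.

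Junb encodes a JUN protein that is a weaker activator and can oppose Jun at shared targets. It was 65.1, 102 and 107 TPM in siControl samples 1, 2 and 3, and 70.9, 154 and 155 TPM in siDerl1 samples 1, 2 and 3. Both samples numbered 1 were below the other 4, the reverse of Jun, and siDerl1 exceeded siControl by little in sample 1 and by more in samples 2 and 3. The group means were 91.3 ± 22.8 and 126 ± 48.1 TPM (SD, n = 3 each), which overlapped, with a log2 difference of 0.41 (95% interval −0.35 to 1.18, limma adjusted p = 0.857). In fits without sample number, that difference moved when single samples were left out. It was 0.19 without siControl sample 1, 0.22 without siDerl1 sample 3, 0.23 without siDerl1 sample 2 and 0.78 without siDerl1 sample 1, none of them past the adjusted threshold. Leaving out 1 sample also unbalances the numbers between groups, so these shifts mix sample number with the siRNA difference. Within numbers the log2 differences were 0.12, 0.58 and 0.54, higher in 3 of 3 pairs. With the sample number as a block the 95% interval was 0.21 to 0.61. Junb was then the only one of the 10 with an unadjusted p under 0.05 (limma adjusted p = 0.0874). In that fit 15.7% of all genes had such a p and 0.552% (57 genes) an adjusted p under 0.05.

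Leaving out both samples numbered 1, a choice made after the data were seen, Junb passed the threshold in 2 against 2 samples (log2 difference 0.56, limma adjusted p = 0.0241, and 1.31e-06 with the block). In those fits 0.338% of all genes were called (35 genes), and 4.89% with the block (506 genes). The choice removed the pair with the smallest Junb difference (0.12), and these fits have few residual degrees of freedom, fewest with the block. Leaving out 1 sample numbered 1 at a time did not bring Junb past the threshold (adjusted p = 0.899 without siControl sample 1 and 0.634 without siDerl1 sample 1). Each number holds 1 sample per group, so whether the siRNA difference itself differed between numbers was not tested. For sample number, limma gave an adjusted p of 0.00128 for Junb, 0.0674 without the intensity trend and 0.891 between numbers 2 and 3 alone, and the mean of samples 2 and 3 was 1.90 times that of sample 1.

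Jund encodes the JUN protein that is typically present in resting cells and least dependent on stimulation. Its levels were 170, 184 and 196 TPM in siControl samples 1, 2 and 3, and 160, 170 and 183 TPM in siDerl1 samples 1, 2 and 3. It was the steadiest JUN gene across numbers (adjusted p = 0.140, limma), and siDerl1 was below siControl in each pair, by log2 differences of −0.09, −0.11 and −0.10. This small difference had a 95% interval of −0.28 to 0.08, and −0.21 to 0.01 with the sample number as a block. It missed the threshold in both fits (limma adjusted p = 0.849 and 0.359).

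The summed level of the JUN family varied little while the shares of Jun and Junb did not. Summed JUN family TPM was between 402 and 448 in the 6 samples. Jun made up 46.4%, 29.9% and 24.8% of it in siControl samples 1, 2 and 3, and 46.0%, 27.8% and 22.3% in siDerl1 samples 1, 2 and 3. Jun was thus the most abundant JUN transcript in sample 1 of both groups and Jund in the other 4. The Jun to Junb ratio was 3.13, 1.20 and 0.935 in siControl samples 1, 2 and 3, and 2.77, 0.811 and 0.625 in siDerl1 samples 1, 2 and 3.

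Fos encodes the founding FOS protein, whose short-lived transcript is a standard readout of acute stimulation. It was 57.0, 34.1 and 27.9 TPM in siControl samples 1, 2 and 3, and 65.4, 33.5 and 26.1 TPM in siDerl1 samples 1, 2 and 3. As for Jun, both samples numbered 1 stood above the rest, at 2.01 times the mean of samples 2 and 3. The group means were 39.7 ± 15.3 and 41.7 ± 20.9 TPM (SD, n = 3 each), a log2 difference of 0.03 (95% interval −0.84 to 0.90, limma adjusted p = 0.992). With the sample number as a block the interval was −0.17 to 0.22. Sample number gave a limma adjusted p of 4.47e-04 for Fos, and 0.139 between numbers 2 and 3 alone.

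The ratio of Jun to Fos moved far less than that of Jun to Junb. Jun exceeded Fos 3.58, 3.59 and 3.58 times in siControl samples 1, 2 and 3, and 3.01, 3.71 and 3.70 times in siDerl1 samples 1, 2 and 3. Within the FOS family, Fos made up 81.0%, 65.5% and 57.6% of the summed TPM in siControl samples 1, 2 and 3, and 80.0%, 69.2% and 59.7% in siDerl1 samples 1, 2 and 3. Unlike the JUN total, the FOS total was higher in both samples numbered 1 (70.4 and 81.7 TPM) than in the other 4 (43.8 to 52.1 TPM).

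**Figure D2:**
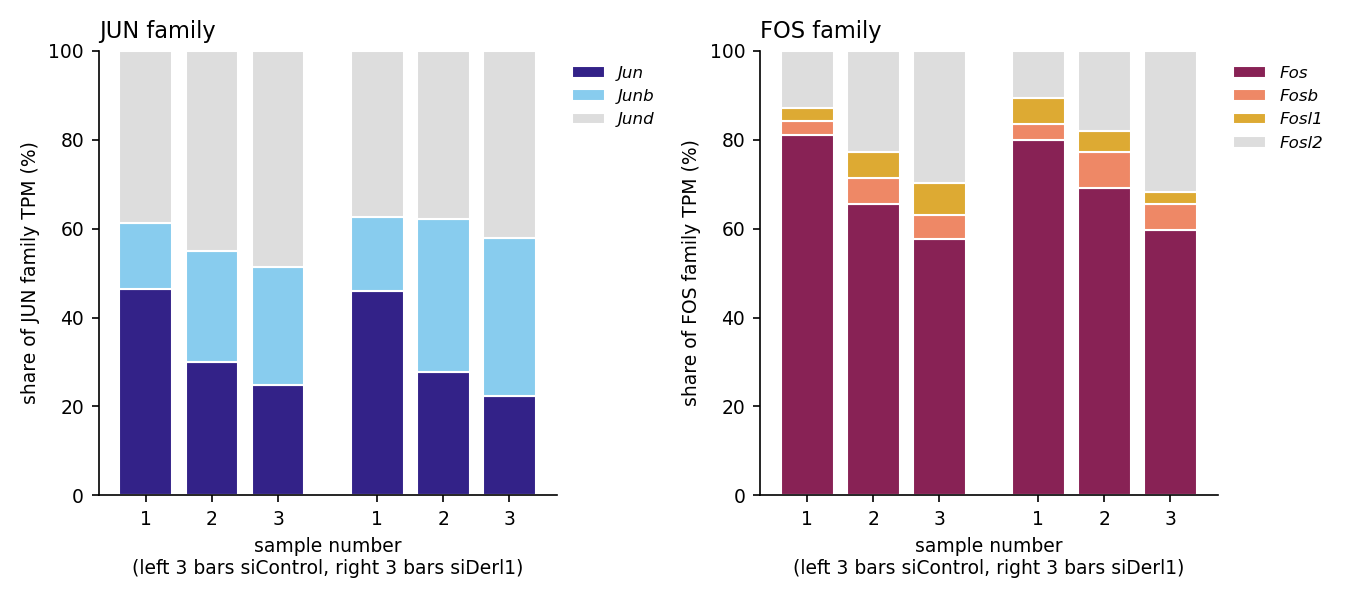
Share (percent, from 0 to 100) of each gene in the summed TPM of the JUN family (left panel) and the FOS family (right panel), 1 stacked bar per sample, siControl on the left and siDerl1 on the right of each panel. Jun takes 46.4% and 46.0% in the bars of sample 1 and at most 29.9% in the other 4, where Junb is wider, and Fos is the largest part of the FOS family in every bar.

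Fosl2, also called Fra-2, a FOS protein that lacks a strong activation domain, was 9.02, 11.9 and 14.4 TPM in siControl samples 1, 2 and 3, and 8.68, 8.69 and 13.9 TPM in siDerl1 samples 1, 2 and 3. It was lower in siDerl1 in 3 of 3 pairs, but the groups overlapped (log2 difference −0.17, SE 0.23, limma adjusted p = 0.934). Fosl2 was highest in sample 3 of both groups (limma adjusted p for sample number 0.0823, and from 0.0271 to 0.416 with single samples left out, the lowest without siDerl1 sample 1).

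Fosl1, also called Fra-1 and often raised by sustained ERK signalling, was 2.08, 3.08 and 3.48 TPM in siControl samples 1, 2 and 3, and 4.71, 2.36 and 1.16 TPM in siDerl1 samples 1, 2 and 3. Here the pairs went in different directions, with log2 differences of 0.89, −0.28 and −1.05. Their mean of −0.15 had an SE of 0.37 (limma adjusted p = 0.960), and the counting error at this low level is not known.

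Fosb, which neurons induce on repeated activity, was 2.31, 3.01 and 2.61 TPM in siControl samples 1, 2 and 3, and 2.92, 3.85 and 2.51 TPM in siDerl1 samples 1, 2 and 3. The groups overlapped (log2 difference 0.16, SE 0.20, limma adjusted p = 0.933). Neither Fosb nor Fosl1 followed sample number (limma adjusted p = 0.613 and 0.758).

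Egr1, a zinc finger factor induced through SRF and ELK factors, was 2.00, 1.51 and 3.22 TPM in siControl samples 1, 2 and 3, and 3.51, 3.25 and 2.56 TPM in siDerl1 samples 1, 2 and 3. Its mean was higher in siDerl1, with siControl sample 3 inside the siDerl1 range (log2 difference 0.37, 95% interval −0.21 to 0.95, limma adjusted p = 0.822). Although it is usually induced together with Fos, Egr1 did not pass the sample number test (limma adjusted p = 0.833) and stayed at a few TPM where Fos was highest.

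Ier2, a nuclear protein gene of the immediate early class, was 74.2, 60.8 and 58.3 TPM in siControl samples 1, 2 and 3, and 74.2, 62.2 and 60.2 TPM in siDerl1 samples 1, 2 and 3. Both samples numbered 1 were above the other 4, as for Fos and Jun, but by less, and sample number gave a limma adjusted p of 0.0522, which was 0.0465 over genes with a mean of 5 TPM or more, 0.165 without the intensity trend and from 0.0838 to 0.146 with single samples left out. The log2 difference between siRNA groups was 0.03 (95% interval −0.26 to 0.31, limma adjusted p = 0.978).

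Ier3, a stress and survival gene also known as IEX-1, was 36.5, 40.0 and 42.4 TPM in siControl samples 1, 2 and 3, and 23.7, 52.0 and 38.9 TPM in siDerl1 samples 1, 2 and 3. The siDerl1 samples held both the lowest and the highest value, and the SD was 14.2 TPM against 2.95 TPM in siControl. The log2 difference was −0.12 (SE 0.25, limma adjusted p = 0.953), with pairs in both directions.

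**Figure D3:**
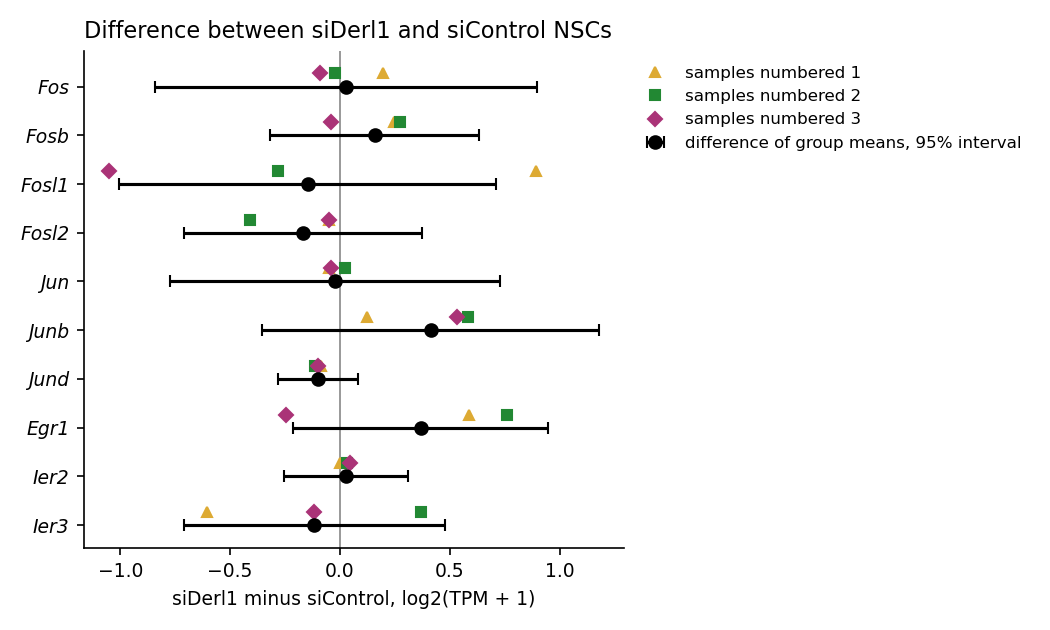
Difference between siDerl1 and siControl on the log2(TPM + 1) scale for each gene, with black circles and bars for the difference of group means and its 95% interval from limma (n = 3 each) and coloured symbols for the same-numbered samples. The intervals come from the fit without sample number, and every one includes 0. With the sample number as a block, which is not drawn, only that of Junb excluded 0 (0.21 to 0.61). The 3 Jun symbols and the 3 Ier2 symbols cluster near 0 while those of Fosl1 spread from −1.05 to 0.89.

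Across the 10 genes, 4 moved in 1 direction in all 3 same-numbered pairs (Junb and Ier2 higher, Fosl2 and Jund lower in siDerl1), beside 37.8% of all genes tested. For sample number, 3 of the 10 (Fos, Jun and Junb) passed the F test, beside 10.6% of all genes (1092 genes). Both samples numbered 1 lay outside the other 4 for 5 of the 10, Fos, Jun and Ier2 above and Junb and Ier3 below, beside 32.7% of all genes. Sample number 1 minus the mean of 2 and 3, on the log2 scale, was 0.87 in siControl and 1.12 in siDerl1 for Fos, 0.88 and 0.84 for Jun, 0.31 and 0.27 for Ier2, and −0.67 and −1.11 for Junb. Without siControl sample 1, number 1 was siDerl1 sample 1 alone, and the spread came from the other numbers. The calls of Fosl1 (4.71 TPM in that sample) and Ier3 (23.7 TPM) added in that fit rest on this 1 sample. Ier3 had a limma adjusted p of 0.129 for sample number over all samples and 0.349 without the intensity trend. It was called in some fits with a single sample left out and not in others. Without both samples numbered 1, only Jun was called (adjusted p = 0.00745), beside 2.32% of all genes. That sample 1 stands apart was known before these genes were examined.

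**Figure D4:**
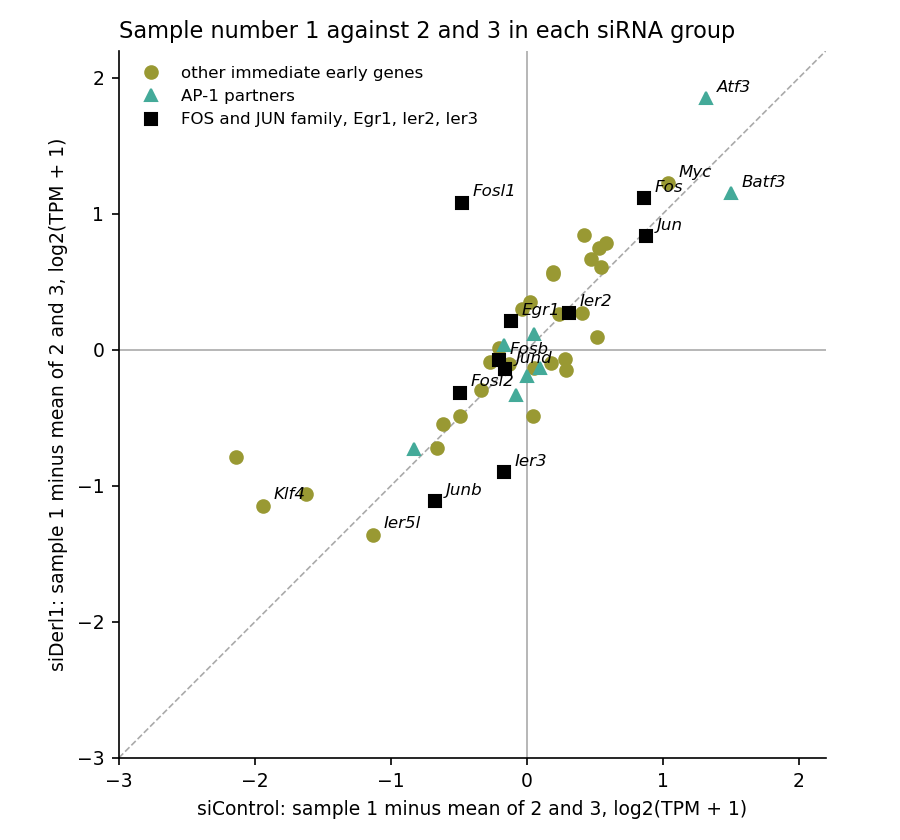
Sample 1 minus the mean of samples 2 and 3 on the log2(TPM + 1) scale, siControl on the horizontal and siDerl1 on the vertical axis, 1 point per gene for the 10 genes (squares), AP-1 partners (triangles) and other immediate early genes (circles), with a dashed line of equality. Fos (0.87 and 1.12) and Jun (0.88 and 0.84) lie high near the line with Myc, Atf3 (1.32 and 1.85) is higher and above the line, Junb (−0.67 and −1.11) lies low with Ier5l and Klf4, and Fosl1 is off the line.

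Some marker and stress genes also differed by sample number. The summed TPM of the 12 neural stem cell markers was 4097 and 4533 in the samples numbered 1 and 5667 to 6056 in the other 4, a gap carried by Vim. Without Vim the sum of the other 11 was 1089 and 1147 TPM in the samples numbered 1 and 997 to 1090 TPM in the others. Of the 11 tested markers 8 were called for sample number, beside 10.6% of all genes, 4 of them below and 1 above in samples numbered 1. Called or not, 5 were below the other 4 samples in both samples numbered 1, among them Sox9 (7.50 and 9.42 against 34.7 to 38.3 TPM). Fabp7 was above (196 and 220 against 97.2 to 132 TPM). Of all genes 32.7% had both samples numbered 1 outside the other 4. The summed TPM of the 10 oligodendrocyte markers was 2170 and 2346 against 1816 to 2099, with 1 of 6 tested called for sample number, and 0 of 10 tested markers of neurons, microglia, and endothelial and mural cells were called. Summed microglia markers ranged from 5.01 to 9.36 TPM and endothelial and mural markers from 1.77 to 3.95 TPM over the 6 samples, and neuron markers from 211 to 250 TPM. For the 8 tested of 10 heat shock and handling stress genes the sum was 3281 and 3107 TPM in samples numbered 1 and 3653 to 3952 TPM in the others, a gap carried mainly by Hspa8 (1545 and 1455 against 1959 to 2128 TPM). Without Hspa8 the sum was 1736 and 1652 against 1694 to 1837 TPM, and of 3 called for sample number Hspa8 and Hsph1 were below and Hspe1 above in the samples numbered 1. The part of cell makeup or handling in the differences of Fos, Jun and Junb was not tested.

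The other proteins that dimerise with FOS and JUN were read from a list of 10, of which 9 were found and 8 tested. Their median log2 difference was 0.15, and 0 had an unadjusted p under 0.05, beside 6.7% of all genes. Atf3, a stress-induced partner, was 43.7, 17.0 and 16.9 TPM in siControl samples 1, 2 and 3, and 97.9, 32.0 and 21.8 TPM in siDerl1 samples 1, 2 and 3. It was thus highest in sample 1 like Fos and Jun (adjusted p for sample number 5.53e-04, limma), and also higher in siDerl1 in each pair (log2 difference 0.79, SE 0.58, limma adjusted p = 0.844). With the block the limma adjusted p was 0.0517, and 0.194 and 0.255 when the block went with no filter or no intensity trend. With the block without both samples numbered 1 it was 0.00376, where 4.89% of all genes were called. Batf3 was also called for sample number (adjusted p = 0.0356, limma) at 4.26 TPM or less, and Mafg and Atf2 at 30.9 to 58.7 TPM were not. The study lists Atf3 and the feedback gene Dusp6 among genes chosen on these samples, so their values are not independent evidence.

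Of 34 other immediate early genes 29 were tested, and 14 were called for sample number, beside 10.6% of all genes, 7 with both samples numbered 1 above the other 4 and 7 below. Myc, a growth-promoting factor, went with Fos and Jun at 264, 153 and 106 TPM in siControl samples 1, 2 and 3 and 295, 158 and 99.9 TPM in siDerl1 samples 1, 2 and 3 (limma adjusted p = 1.4e-05). Nr4a1, Sgk1, Klf6, Rhob, Gadd45b and Gadd45g were the others above, and Ier5l, Klf4, Bhlhe40, Trib1, Gadd45a, Cyr61 and Ctgf were those below, as Junb was. Ier5l was 65.9 and 62.0 TPM in the samples numbered 1 and at least 116 TPM in the others. These genes were named after their values were seen. For siDerl1 against siControl the list's median log2 difference was −0.00. Plk2 (log2 difference −0.28, SE 0.10, limma adjusted p = 0.704) was the 1 gene with an unadjusted p under 0.05, reached by 6.7% of all genes.

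Of 24 upstream kinases and factors 22 were tested, with a median log2 difference of −0.04. Srf, whose protein binds CArG boxes, the motif matched in the Egr1 promoter, was 23.7, 24.1 and 23.8 TPM in siControl samples 1, 2 and 3. In siDerl1 samples 1, 2 and 3 it was 19.3, 20.5 and 20.9 TPM. The groups did not overlap, beside 13.6% of all genes. Its unadjusted p was under 0.05, beside 6.7% of all genes (log2 difference −0.23, limma adjusted p = 0.705). Map2k1, the ERK kinase MEK1, was 134 and 128 TPM in the samples numbered 1 and 202 to 210 TPM in the other 4 (adjusted p for sample number 2.20e-04, limma), so it was low where Fos and Jun were high. Mapk10 and Creb1 were also called for sample number, both below in samples numbered 1.

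Feedback inhibitors of the pathway (17 genes, 16 tested) had a median log2 difference of −0.10. At an unadjusted p under 0.05, reached by 6.7% of all genes, 2 genes were lower and 0 higher. The 2 genes were Dusp6, an ERK phosphatase, and Dusp14 (limma adjusted p = 0.721). Dusp6 was 39.1, 49.7 and 49.0 TPM in siControl samples 1, 2 and 3 against 29.0, 36.3 and 40.6 TPM in siDerl1 samples 1, 2 and 3. Its limma adjusted p was 0.713, 0.0817 with the block, and 0.192 and 0.240 when the block went with no filter or no intensity trend. With the block without both samples numbered 1 it was 0.0249, where 4.89% of all genes were called. For sample number 6 were called, beside 10.6% of all genes. Dusp10 was above in samples numbered 1, and Dusp1, Dusp8, Spred2, Spry2 and Spry4 were below, the direction opposite to Fos and Jun. Spry4 was 10.2 and 8.36 TPM in the samples numbered 1 and 18.8 to 27.7 TPM in the others.

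Of 22 known AP-1 target genes 11 were tested, with a median log2 difference of −0.05, and the other 11 were under the filter. At an unadjusted p under 0.05, reached by 6.7% of all genes, Ccl2, a chemokine, and Lif, a cytokine, were higher and Plaur, the urokinase receptor, was lower in siDerl1. Ccl2 was 2.28, 5.71 and 6.64 TPM in siControl samples 1, 2 and 3 and 4.94, 26.4 and 29.1 TPM in siDerl1 samples 1, 2 and 3 (log2 difference 1.62, SE 0.64, limma adjusted p = 0.713, and 0.0256 with the block). That call was lost when the block went with no filter (adjusted p = 0.165, limma) or no intensity trend (adjusted p = 0.238), and kept with the block without both samples numbered 1 (adjusted p = 1.17e-11), where 4.89% of all genes were called. Like Junb, Ccl2 was lowest in sample 1 of each group. For sample number 5 targets were called, beside 10.6% of all genes, 4 with both samples numbered 1 below the other 4, Ccl2, Cd44 and Tnc among them, and Ccnd1 (adjusted p = 0.0174, limma) did not.

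As a description over the same 6 libraries, the genes of no list whose log2 values followed Fos most closely were Stard13 (Pearson r = 0.999), Sema4d (r = 0.997) and Eef1a1 (r = 0.997). For Jun they were Svil (r = 0.998), Dmrt2 (r = 0.996) and Cd81 (r = 0.996), and for Egr1 Pqlc3 (r = 0.996), Akna (r = 0.978) and Wbp1l (r = 0.977). All were picked as the closest of many genes over 6 samples, where some high values arise from the search alone. For Egr1, at a few TPM, the counting error is also not known. The values for Fos and Jun rest largely on the gap between sample 1 and the other samples, which fall into 2 clusters.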

How the data were processed

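Poly(A) RNA was sequenced from 3 siControl and 3 siDerl1 samples. The authors trimmed reads with Trimmomatic 0.39, aligned them to rn6 with STAR 2.7.3a and deposited gene-level TPM from RSEM 1.3.2, 1 table per sample, whose sum is the same in every library and holds no read depth. The read counts behind them were not analysed here. Here, log2(TPM + 1) was fitted with limma 3.58.1 (R 4.3.3) with an intensity trend over the genes whose average TPM reached 1, with Benjamini-Hochberg adjustment over all 10331 genes. Fold changes on this scale understate those of low genes. Sample number was tested by a limma F test over all 3 numbers with siRNA group in the model. All 10 accessions matched their RefSeq symbol. Scripts were tested on data of known answer.

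Same-numbered samples deviated together (r = 0.70, 0.35 and 0.51 for numbers 1, 2 and 3, across genes), so the numbers were taken as pairs, a rule that reads the data and not a stated design; numbers 2 and 3 also correlated with each other (0.34 and 0.25). Files of different samples shared at most 0.596% of their values above 0, so no library was a copy of another.

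The members, companion lists and tests were chosen with earlier results of these data known. All members were named, and of each companion list the 3 genes with the smallest p and the 3 with the highest mean TPM were eligible. Other genes of those lists that are named were chosen after their values were seen, most of them because they were called for sample number. Alternatives were a sample number block, a pseudocount of 0.1, no filter or a minimum of 5 TPM, median-of-ratios scaling, no trend, and leaving out samples.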

Additional observations from a re-analysis of the deposited data

How the results depend on the processing

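For siDerl1 against siControl, 0 genes were called by limma under the other pseudocount, the other filters, median-of-ratios scaling, no intensity trend, and each single sample left out. The replicate block called 57, the block with no filter 2 and the block with no trend 0. Leaving out both samples numbered 1 called 35 genes, and 506 with the block. None of the other 9 members changed its call under the replicate block, and Junb did not pass the adjusted threshold under it. The Derl1 difference was −1.03 under the block, with an adjusted p of 0.00884 (0.104 with no filter and 0.229 with no trend besides), and −0.83 without both samples numbered 1, with and without the block (adjusted p = 1.81e-09 and 0.00545).

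With single samples left out, the Derl1 difference ranged from −1.16 to −0.80 and the members' median difference, 0.00 with all samples, from −0.071 to 0.20. Some members changed sign but stayed under the threshold. With samples left out, Fos ranged from −0.34 to 0.32, Fosl1 from −0.67 to 0.19, Jun from −0.30 to 0.27, Ier2 from −0.064 to 0.13 and Ier3 from −0.37 to 0.18. Without both samples numbered 1, with or without the block, Fos was −0.056 and Ier3 0.13. Members that kept their sign also ranged widely with single samples left out: Junb from 0.19 to 0.78, Egr1 from 0.20 to 0.57, Fosl2 from −0.38 to −0.021, Fosb from 0.030 to 0.26 and Jund from −0.15 to −0.052. The fits with single samples left out had no sample number term, and each unbalances the numbers between groups. Their shifts mix sample number with the siRNA difference, and the part of each was not tested.

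For sample number, 1092 genes were called, 591 with no filter, 252 with no trend, 612 (without siDerl1 sample 3) to 1672 (without siControl sample 1) with single samples left out, and 240 without both samples numbered 1. The members called, 3, became 2 with no trend and 4 with a minimum of 5 TPM, ranged from 3 to 5 with single samples left out and fell to 1 without both samples numbered 1. Fits of 4 or 5 samples, several chosen after seeing the data, have few residual degrees of freedom. With a single sample left out, 1 number is held by 1 sample, so its own spread is not measured. Unknown depth limits what can be said of Fosb, Fosl1 and Egr1.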
